A study of Mus musculus with 8 samples.

Results

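Crypt base columnar stem cell markers were followed in the crypts of Mex3a knock-out (KO) and control mice. The markers are 10 genes, Olfm4, Ascl2, Smoc2, Tnfrsf19, Cdca7, Prom1, Rgmb, Sox9, Mfge8 and Esrrg, chosen by name out of the 55114 genes counted in these libraries. The rule that picks them uses no measured value, but they were proposed with earlier results of these libraries known. All 10 were among the 16109 genes with enough reads to be tested. For 5 of them, Olfm4, Smoc2, Sox9, Mfge8 and Esrrg, the direction in these same libraries had been shown before, so their direction is not independent evidence. The other 5 had not been shown from these libraries. Of these, Ascl2 and Tnfrsf19 had been reported as lower in KO crypts by qRT-PCR, so their direction was known as well.

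Crypt base columnar cells are slender, cycling intestinal stem cells (ISCs) that sit between Paneth cells at the bottom of each crypt and carry the receptor Lgr5. Their daughters move upwards, divide as transit-amplifying cells and differentiate into absorptive and secretory cells. WNT ligands keep the stem cell programme on through β-catenin and the TCF/LEF transcription factors, and Ascl2 and Sox9 are among the transcription factors switched on by this pathway. MEX3A is an RNA-binding protein that is enriched in these Lgr5 cells, and the comparison of KO with control crypts addresses how stemness depends on it.

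Crypt fractions were detached by EDTA from the intestine of untreated C57BL/6 mice at 8 weeks of age, 4 littermate controls (Ctrl) and 4 Mex3a-/- mice (KO), and RNA of the whole fraction was sequenced. The KO is constitutive, with the first exon and part of the next deleted in every cell of the body and not in the epithelium alone. The segment of intestine is not given in the sources used here. Controls had 20324184 to 24726221 counted reads per mouse and KO mice 23489180 to 30654105. In both genotypes, replicates 1 and 2 carried Y-chromosome transcripts and replicates 3 and 4 carried Xist. The counts of Mex3a itself were 269, 236, 327 and 328 in control replicates 1 to 4, against 20, 28, 6 and 8 in the KO replicates. This is a log2 fold change of -4.43 ± 0.43 (standard error, adjusted p = 0.0310 with edgeR), and no other gene passed an adjusted p of 0.05. Mex3a missed that threshold in the fit with replicate blocks and in the 6 fits that each left out control replicate 1, 3 or 4 or KO replicate 1, 3 or 4. The crypt label was checked against marker genes. All 10 Paneth cell markers and all 8 pan-epithelial markers had at least 10 counts in every mouse, whereas smooth muscle markers summed to 0.370 to 1.39 CPM (counts scaled to library size with TMM factors) and the colon gene Hoxb13 was at 0 in all 8 mice.

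All 10 stem cell markers had lower mean levels in KO than in control crypts. The log2 fold changes ran from -0.52 for Esrrg to -0.10 for Tnfrsf19, with a median of -0.29, while the median over all 16109 genes tested was -0.016 and their middle 50% lay between -0.13 and 0.12. Over all genes tested, 53.9% had a log2 fold change below 0. Olfm4, Smoc2, Cdca7, Rgmb, Mfge8 and Esrrg had an unadjusted p under 0.05, which makes 6 of the 10, where 3.05% of all genes were lower at that threshold and 5.33% were higher. In 4 of the 10, Olfm4, Smoc2, Mfge8 and Esrrg, every KO mouse lay below every control mouse, against 1.87% of all genes. All 4 of these are among the 5 markers whose direction had been shown before in these libraries. Of the 5 that had not, Cdca7 and Rgmb had an unadjusted p under 0.05, which makes 2 of 5, and 0 of 5 were without overlap. After adjustment over all genes, 0 of the 10 stayed under 0.05 in the edgeR test, where 0.00621% of genes did (1 of 16109), and the smallest adjusted p among the markers was 0.518, shared by Smoc2, Rgmb, Mfge8 and Esrrg. With DESeq2 the adjusted count was also 0 of 10, against 0.577% of all genes, and the smallest adjusted p was 0.0871, for Esrrg. At an unadjusted p under 0.05 DESeq2 gave 6 of the 10, against 2.99% of all genes lower. In RNA of whole crypts, fewer stem cells and less RNA per stem cell cannot be told apart. In other experiments on mice without Mex3a, the study counted fewer Olfm4-positive cells per crypt by staining. It also found a lower frequency of Lgr5-positive cells by flow cytometry.

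**Figure D1:**
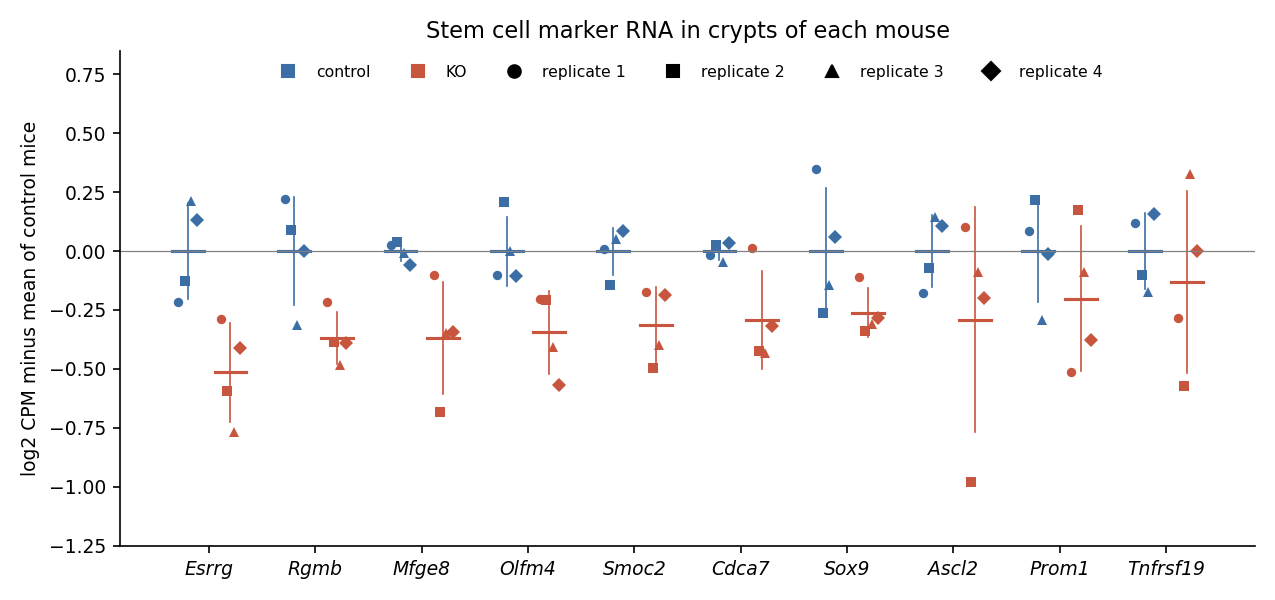
Level of each marker in each mouse, as log2 CPM minus the mean of the 4 control mice (vertical axis), with the markers ordered by fold change. Symbols mark the replicate number, horizontal bars the mean and vertical lines the SD of 4 mice. In Esrrg, Mfge8, Olfm4 and Smoc2 the 4 KO mice sit below the 4 control mice. In Rgmb, Cdca7, Sox9, Ascl2, Prom1 and Tnfrsf19 the genotypes overlap.

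The markers differed widely in abundance. Levels between genes were compared in the authors' FPKM, which divide by gene length. In control crypts Olfm4 stood far above the others with 1305 ± 140 FPKM (SD, n = 4), followed by Cdca7 with 70.5 ± 1.75. The ranges of neighbours in the order then overlapped from Smoc2 (33.8 ± 2.30) through Prom1 (27.0 ± 3.82), Sox9 (23.7 ± 4.42), Rgmb (23.6 ± 3.47) and Ascl2 (20.2 ± 2.18) to Mfge8 (17.2 ± 0.499), so neighbours in this part of the order are not resolved. Some genes farther apart in it were separate, as the control range of Smoc2 lay above those of Sox9, Rgmb, Ascl2 and Mfge8, and the ranges of Prom1, Sox9 and Rgmb lay above that of Mfge8. Others, such as Prom1 and Ascl2, overlapped. Esrrg (5.54 ± 0.805) and Tnfrsf19 (3.26 ± 0.355) were the least abundant and were separate from each other in controls. The mean levels followed the same order in KO crypts, from 1034 ± 124 FPKM for Olfm4 to 3.06 ± 0.817 for Tnfrsf19, but there the ranges of Esrrg (3.90 ± 0.571) and Tnfrsf19 overlapped.

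**Figure D2:**
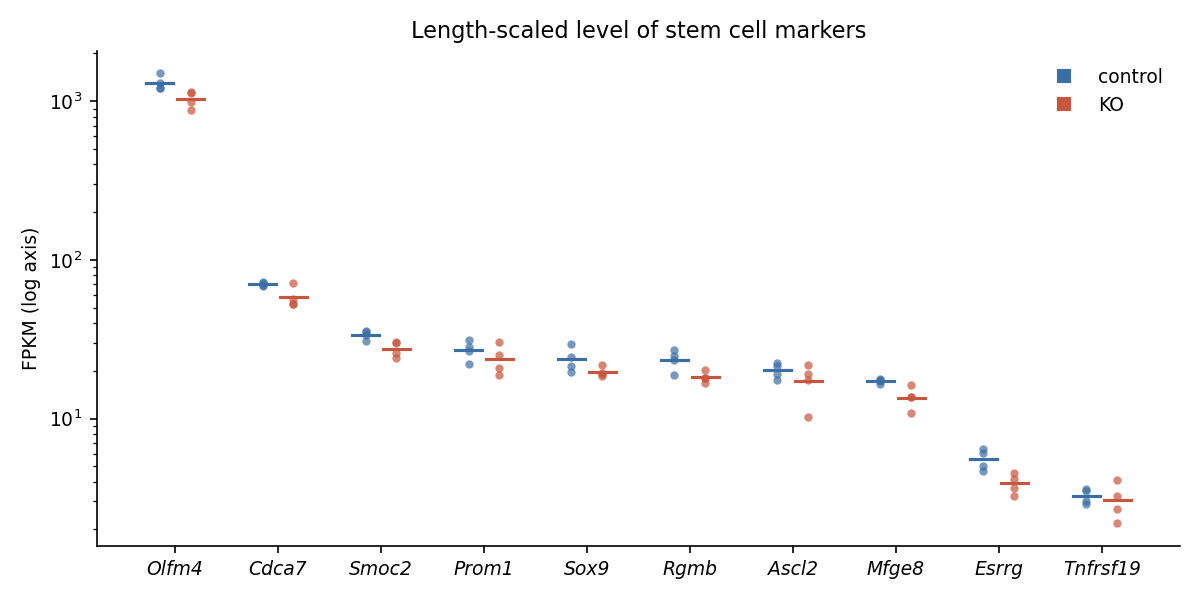
Length-scaled level (FPKM, log axis) of each marker in the 4 control and 4 KO mice, ordered by the control mean, with bars at the means. Olfm4 lies at 1305 FPKM in controls, all other markers at or under 70.5, and the order of the means is the same in KO crypts.

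Secreted and matrix proteins. Olfm4 encodes olfactomedin 4, a secreted glycoprotein and the most widely used tissue marker of these stem cells. The gene (ENSMUSG00000022026) lies at chr14:79984081-80023139 on the plus strand of GRCm38. Its promoter window from 250 bases before to 50 bases after the start site, taken from RefSeq on build GRCm38.p6, is shown because Olfm4 is the most abundant marker, and capitals mark its 2 matches to the box bound by Krüppel-like factors (KLF box, CNCACCC on either strand).

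Olfm4 (chr14:80000052-80000351, plus strand): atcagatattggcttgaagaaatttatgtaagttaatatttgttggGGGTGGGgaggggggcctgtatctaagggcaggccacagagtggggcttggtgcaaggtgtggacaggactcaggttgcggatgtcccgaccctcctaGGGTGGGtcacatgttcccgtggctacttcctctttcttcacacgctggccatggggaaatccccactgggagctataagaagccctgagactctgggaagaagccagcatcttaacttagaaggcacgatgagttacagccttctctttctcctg

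Olfm4 stood at 3618, 4478, 3879 and 3605 CPM in control replicates 1 to 4. In KO replicates 1 to 4 it stood at 3366, 3365, 2930 and 2620 CPM. The genotypes did not overlap, and KO replicate 4 was the lowest of the 8 mice. The KO level was 78.8% of control (95% interval 65.3% to 95.2%), and the log2 fold change was -0.34 ± 0.12 (standard error; unadjusted p = 0.0189, adjusted p = 0.533, edgeR). Olfm4 alone took 0.349% to 0.463% of all counted reads in controls and 0.257% to 0.353% in KO mice. The unadjusted p was 0.0606 without control replicate 2 and 0.0539 without KO replicate 4.

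Smoc2 (ENSMUSG00000023886, chr17:14279506-14404790, plus strand) encodes a matricellular calcium-binding protein found in Lgr5 stem cells. It stood at 238, 214, 245 and 251 CPM in control replicates 1 to 4 and at 210.0, 168, 179.6 and 208 CPM in KO replicates 1 to 4. The genotypes did not overlap, with KO replicates 1 and 4 close below the lowest control. The KO level was 80.7% of control (95% interval 69.7% to 93.5%; log2 fold change -0.31, standard error 0.094, unadjusted p = 0.00892, adjusted p = 0.518, edgeR). Mfge8 (ENSMUSG00000030605, chr7:79133768-79149060, minus strand) encodes a secreted protein that bridges integrins and phosphatidylserine on dying cells. It was nearly constant among controls, at 83.1, 83.7, 81.2 and 78.4 CPM, and stood at 76.0, 50.8, 64.0 and 64.4 CPM in KO replicates 1 to 4. Again every KO mouse was below every control mouse, and KO replicate 2 was the lowest. The KO level was 78.2% of control (95% interval 65.9% to 92.8%; log2 fold change -0.35, standard error 0.11, unadjusted p = 0.00970, adjusted p = 0.518, edgeR).

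Transcription factors. Ascl2 is the basic helix-loop-helix factor that, together with WNT signalling, maintains the identity of Lgr5 stem cells. The gene (ENSMUSG00000009248) lies at chr7:142966829-142969264 on the minus strand. The promoter window is printed because Ascl2 is the lineage factor of these cells, with the 2 KLF boxes in capitals.

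Ascl2 (chr7:142969215-142969514, minus strand): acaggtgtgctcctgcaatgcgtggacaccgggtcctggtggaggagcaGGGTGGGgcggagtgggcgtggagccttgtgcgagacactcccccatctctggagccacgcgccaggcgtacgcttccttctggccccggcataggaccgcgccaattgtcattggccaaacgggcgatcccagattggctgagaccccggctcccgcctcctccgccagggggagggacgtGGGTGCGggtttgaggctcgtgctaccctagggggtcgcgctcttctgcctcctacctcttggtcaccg

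Ascl2 stood at 29.0, 31.2, 36.3 and 35.3 CPM in control replicates 1 to 4 and at 35.3, 16.6, 30.9 and 28.6 CPM in KO replicates 1 to 4. KO replicate 2 was by far the lowest, and the other 3 KO mice lay within or just under the control range. The log2 fold change was -0.24 ± 0.20 (standard error; 95% interval -0.70 to 0.21, unadjusted p = 0.259, adjusted p = 0.787, edgeR), and it was -0.059 without KO replicate 2 and -0.38 without KO replicate 1.

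Sox9 (ENSMUSG00000000567, chr11:112782224-112787760, plus strand) encodes a high-mobility-group factor of stem, Paneth and tuft cells. It stood at 124, 81.2, 88.3 and 102 CPM in controls and at 90.3, 77.1, 78.8 and 80.1 CPM in KO replicates 1 to 4. Of the KO mice, 3 were below the lowest control and KO replicate 1 was not. Its KO level was 82.5% of control (95% interval 67.6% to 100.7%; log2 fold change -0.28, standard error 0.13, unadjusted p = 0.0567, adjusted p = 0.605, edgeR). Control replicate 1 was the highest of the 8 mice, and the log2 fold change without it was -0.15. The unadjusted p was 0.0152 without control replicate 2, 0.0464 without control replicate 3 and 0.0426 without KO replicate 1. Esrrg (ENSMUSG00000026610, chr1:187608791-188214885, plus strand), an orphan nuclear receptor known for its part in mitochondrial metabolism, had the greatest relative difference of the 10. It stood at 29.6, 31.5, 39.9 and 37.7 CPM in controls and at 28.2, 22.8, 20.2 and 25.9 CPM in KO replicates 1 to 4. KO replicate 1 came close to the lowest control, but the genotypes did not overlap. The KO level was 70.0% of control (95% interval 56.6% to 86.5%; log2 fold change -0.52, standard error 0.14, unadjusted p = 0.00403, adjusted p = 0.518, edgeR).

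Surface proteins. Rgmb (ENSMUSG00000048027, chr17:15803188-15831039, minus strand) is a membrane-anchored co-receptor for bone morphogenetic proteins. It stood at 211, 192, 145 and 181 CPM in controls and at 155, 138, 129 and 138 CPM in KO replicates 1 to 4. Of the KO mice, 3 lay below the lowest control, replicate 3, and KO replicate 1 lay just above it. The KO level was 76.9% of control (95% interval 64.3% to 91.9%; log2 fold change -0.38, standard error 0.11, unadjusted p = 0.00860, adjusted p = 0.518, edgeR). Prom1 (ENSMUSG00000029086, chr5:43993620-44102032, minus strand) encodes prominin 1 (CD133), a membrane protein of stem cells and of transit-amplifying cells above them. It stood at 206, 225, 158 and 192 CPM in controls and at 136, 219, 182 and 149 CPM in KO replicates 1 to 4. The genotypes overlapped broadly, and KO replicate 2 was the second highest of all mice. The log2 fold change was -0.19 ± 0.16 (standard error; 95% interval -0.55 to 0.17, unadjusted p = 0.267, adjusted p = 0.791, edgeR); without KO replicate 2 it was -0.33 with an unadjusted p of 0.0451, without KO replicate 1 it was -0.093 (0.563) and without control replicate 2 it was -0.11 (0.520).

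Tnfrsf19 (Troy, ENSMUSG00000060548, chr14:60963875-61046490, minus strand) is a receptor of the tumour necrosis factor family that is a WNT target in these stem cells. Of its 2 promoter windows, the second is printed because it holds a match to the TCF/LEF motif (ATCAAAG on either strand, also with TT, AA or TA as its opening bases), shown in capitals.

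Tnfrsf19, window 2 (chr14:61037938-61038237, minus strand): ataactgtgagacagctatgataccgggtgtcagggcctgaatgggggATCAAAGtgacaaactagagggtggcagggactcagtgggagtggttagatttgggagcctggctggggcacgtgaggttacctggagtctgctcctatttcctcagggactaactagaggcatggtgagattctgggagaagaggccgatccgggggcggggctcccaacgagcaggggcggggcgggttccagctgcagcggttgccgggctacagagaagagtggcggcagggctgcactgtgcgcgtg

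Tnfrsf19 stood at 16.8, 14.4, 13.7 and 17.3 CPM in controls and at 12.7, 10.4, 19.5 and 15.5 CPM in KO replicates 1 to 4. The highest and the lowest of the 8 mice were both KO mice. The log2 fold change was -0.10 ± 0.19 (standard error; 95% interval -0.53 to 0.32, unadjusted p = 0.605, adjusted p = 0.931, edgeR), and without KO replicate 2 it turned to 0.031. Leaving out KO replicate 3 gave -0.27, leaving out KO replicate 1 gave -0.043, and the other fits that left out 1 mouse lay between these. With 268 to 466 counts per mouse, Tnfrsf19 was also the marker with the fewest reads.

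Nuclear protein. Cdca7 (ENSMUSG00000055612, chr2:72476159-72486893, plus strand) is a MYC- and E2F-responsive zinc-finger protein that acts with the chromatin remodeller HELLS. It was the most constant marker among controls, at 225, 231, 221 and 233 CPM. In KO replicates 1 to 4 it stood at 229, 169.5, 169 and 182 CPM. KO replicate 1 lay inside the control range, and the other 3 KO mice lay well below it. The KO level was 82.3% of control (95% interval 70.1% to 96.7%; log2 fold change -0.28, standard error 0.10, unadjusted p = 0.0228, adjusted p = 0.545, edgeR), and the unadjusted p was above 0.05 when KO replicate 2 (0.0789), 3 (0.0644) or 4 (0.0538) was left out.

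**Figure D3:**
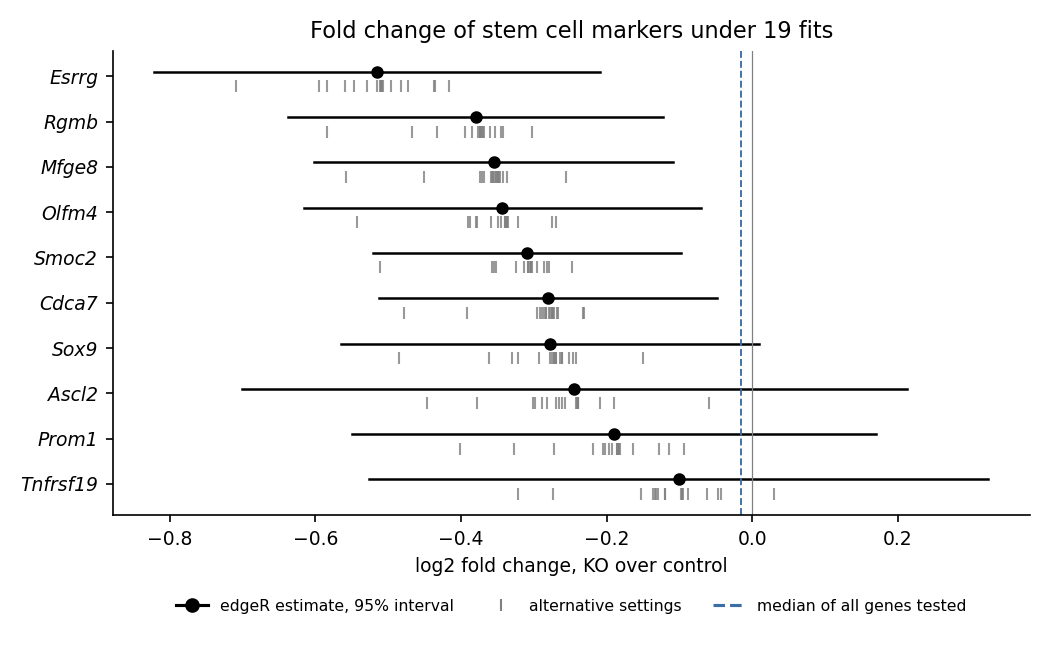
Log2 fold change, KO over control, of each marker (dots) with its 95% interval (lines), and the values in the 18 alternative analyses (grey ticks). The dashed line is the median of all genes tested, -0.016. The intervals of Esrrg, Rgmb, Mfge8, Olfm4, Smoc2 and Cdca7 end below 0, and only Tnfrsf19 has a tick above 0.

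The differences were not shared evenly by the KO mice. KO replicate 1 had the highest level among KO mice for 8 of the 10 markers and KO replicate 2 the lowest for 5. The median over the markers of the log2 level relative to the control mean was -0.19 in KO replicate 1, -0.46 in replicate 2, -0.37 in replicate 3 and -0.33 in replicate 4, against -0.025 to 0.049 in the 4 controls. The number of markers below the control mean was 8, 9, 9 and 10 in KO replicates 1 to 4 and 3 to 7 in controls. These counts were not made over all genes, so whether they are particular to the markers was not tested. Over all genes, the count at an unadjusted p under 0.05 rose from 1350 to 2133 without KO replicate 1 (edgeR). Summed over the 10 markers, controls held 4733 to 5583 CPM and KO mice 3512 to 4339 CPM, but Olfm4 made up 74.6% to 80.2% of that sum in every mouse. Without Olfm4 the sum was 1029 to 1162 CPM in controls and 872 to 973 CPM in KO mice.

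The labels give both genotypes the replicate numbers 1 to 4. Against the control of the same number, 6 of the 10 markers, Olfm4, Smoc2, Rgmb, Sox9, Mfge8 and Esrrg, were lower in all 4 KO mice, against 9.65% of all genes. With the replicate number as a block, 7 of the 10 markers had an unadjusted p under 0.05, against 4.13% of all genes lower at that threshold. Sox9 was the addition (log2 fold change -0.26, unadjusted p = 0.0168, adjusted p = 0.334, edgeR), and the smallest adjusted p among the markers with the block was 0.215, for Rgmb.

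The genotype difference was also compared between the 4 mice with Y transcripts and the 4 with Xist. None of the 10 markers had an interaction with an unadjusted p under 0.05, and over all genes 616 did and none passed an adjusted p of 0.05 (edgeR). Esrrg differed by -0.27 on the log2 scale in mice with Y transcripts and by -0.76 in mice with Xist (interaction -0.49, standard error 0.22, unadjusted p = 0.0610, adjusted p = 0.974). Tnfrsf19 differed by -0.44 and by 0.17 (interaction 0.61, standard error 0.28, unadjusted p = 0.0657, adjusted p = 0.974). With 2 mice of each kind per genotype these intervals are wide. The other 8 markers were lower in both kinds of mice.

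Other genes of the Lgr5 stem cell programme were read from a list of 23 genes that holds none of the 10 markers. KO levels were lower for 21 of them, where 53.9% of all genes were lower. The median log2 fold change of the list was -0.25 (range -0.92 to 0.16), against -0.016 over all genes tested. An unadjusted p under 0.05 was reached by 8, all lower, which is 8 of 23 against 3.05% of all genes, and none passed the adjusted threshold. Msi1, an RNA-binding protein of stem and progenitor cells, stood at 46.3 ± 2.63 CPM in controls and 35.9 ± 2.39 CPM in KO (SD, n = 4; log2 fold change -0.37, standard error 0.076, adjusted p = 0.429, edgeR), and its 4 KO mice lay below its 4 controls. Zbtb38, a zinc-finger protein that binds methylated DNA, stood at 73.5 ± 3.77 and 59.7 ± 5.07 CPM (log2 fold change -0.30), also without overlap. Soat1, which esterifies cholesterol, had a log2 fold change of -0.43, Znrf3 and Rnf43, the membrane ubiquitin ligases that remove WNT receptors, had -0.31 and -0.28, and Nav1 had -0.35. In the fits that each left out 1 mouse the count of 8 lay between 4 and 10; it was 5 without control replicate 1 and 4 without control replicate 4 or without KO replicate 2.

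The WNT list runs from receptors to feedback genes. Of its 21 genes, 20 were tested and 13 were lower in KO crypts, where 53.9% of all genes were, and the median log2 fold change was -0.044. Lgr5, Myc, Rnf43 and Znrf3, 4 of the 20, had an unadjusted p under 0.05, against 3.05% of all genes lower at that threshold, and none of the list passed the adjusted threshold. Lgr5, Rnf43 and Znrf3 also stand on the stem cell list. Lgr5 stood at 104, 62.7, 75.3 and 109 CPM in controls and at 55.0, 44.7, 65.4 and 83.1 CPM in KO replicates 1 to 4, with overlap (log2 fold change -0.50, standard error 0.22, unadjusted p = 0.0493, adjusted p = 0.593, edgeR). Myc, the proliferation-driving WNT target, had a log2 fold change of -0.42 (standard error 0.14, adjusted p = 0.518, edgeR). The study had shown Axin2, Ccnd1 and Myc as lower in KO crypts from these same libraries. Here Axin2 had a log2 fold change of -0.080 (standard error 0.11, unadjusted p = 0.497, edgeR). Ccnd1 had one of -0.028 (standard error 0.12, unadjusted p = 0.824, edgeR). The count of 4 was 2 without control replicate 1, without control replicate 4 or without KO replicate 2. Of the 17 proliferation genes, 12 were lower, again against 53.9% of all genes (median log2 fold change -0.021, range -0.10 to 0.15), and none had an unadjusted p under 0.05 in either direction or an adjusted p under 0.05 (edgeR).

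**Figure D4:**
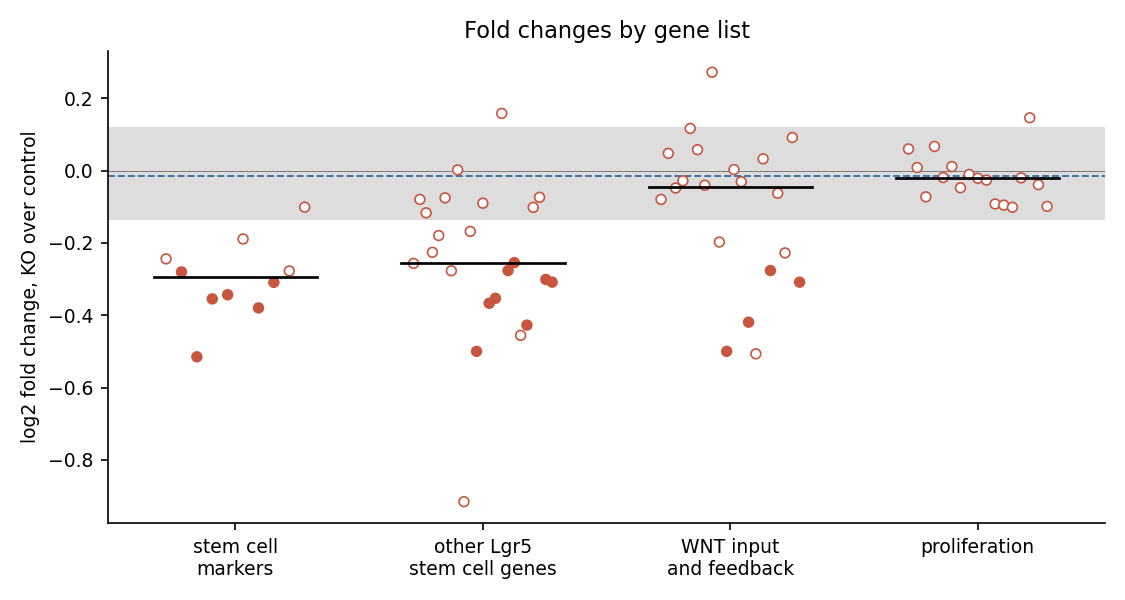
Log2 fold change, KO over control, of each gene tested in 4 lists. Filled points have an unadjusted p under 0.05, bars are list medians, and the dashed line and grey band are the median and the middle 50% of all genes tested. The medians are -0.29 for the stem cell markers, -0.25 for the other Lgr5 stem cell genes, -0.044 for the WNT list and -0.021 for proliferation.

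Markers of other cells and of the intestinal region also differed between the genotypes. The 8 pan-epithelial genes summed to 9348 to 9998 CPM in controls and 10633 to 12221 CPM in KO, without overlap. All 8 had a positive log2 fold change, where 53.9% of all genes had a negative one. An unadjusted p under 0.05 was reached by 3 of the 8, against 5.33% of all genes higher. The 4 ileal genes summed to 81.4 to 412 CPM in controls and 435 to 897 CPM in KO, again without overlap. All 4 were higher at an unadjusted p under 0.05, against 5.33% of all genes. All 10 enterocyte markers had a positive log2 fold change, with sums of 1278 to 3500 CPM in controls and 1916 to 8479 CPM in KO. Of them, 2 had an unadjusted p under 0.05, against 5.33% of all genes higher. With the replicate block 4 did, against 7.14% of all genes higher. All 10 Paneth markers, which mark the niche neighbours of the stem cells, had a negative log2 fold change, against 53.9% of all genes. At an unadjusted p under 0.05, 0 of them were lower, against 3.05% of all genes. With the replicate block 3 were, against 4.13% of all genes. The Paneth sums spread widely and overlapped, at 18119 to 61511 CPM in controls and 9352 to 32400 CPM in KO. KO replicate 2, the lowest KO mouse for 5 stem cell markers, was also the lowest of the 8 mice in Paneth markers. None of the pan-epithelial, ileal, enterocyte or Paneth markers was at 0 in any mouse, and the part of these differences in the stem cell marker values was not tested.

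Of the 8 goblet markers 7 were higher, where 53.9% of all genes were lower. Their sums were 5058 to 6859 CPM in controls and 6039 to 8669 CPM in KO. At an unadjusted p under 0.05, 2 were higher and 1 was lower, against 5.33% and 3.05% of all genes. With the replicate block these counts were 4 and 0, against 7.14% and 4.13% of all genes. The 5 tuft markers tested of 7 were all lower, against 53.9% of all genes. The tuft sums were 42.9 to 104 CPM in controls and 34.8 to 60.3 CPM in KO. At that threshold 1 was lower, against 3.05% of all genes, and with the block 3 were, against 4.13%. The 8 immune markers summed to 31.0 to 39.2 CPM in controls and 35.7 to 60.5 CPM in KO, with 6 higher. At that threshold 2 were higher, against 5.33% of all genes, and with the block 3 were, against 7.14%. Enteroendocrine markers (258 to 462 CPM against 336 to 367 CPM), stromal markers (9.75 to 19.7 CPM against 13.7 to 26.3 CPM) and endothelial markers (1.54 to 4.97 CPM against 1.59 to 2.59 CPM) overlapped between the genotypes. Lum and Pdgfra of the stroma and Il25 of tuft cells were at 0 in at least 1 mouse. Relative to the pan-epithelial sum, the median log2 fold change of all genes was -0.22 and that of the 10 stem cell markers -0.50; the scaling shifts all genes alike and so leaves the gap between these medians nearly fixed. With it, 8 of the 10 had an unadjusted p under 0.05, where 24.6% of all genes did so on the lower side.

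**Figure D5:**
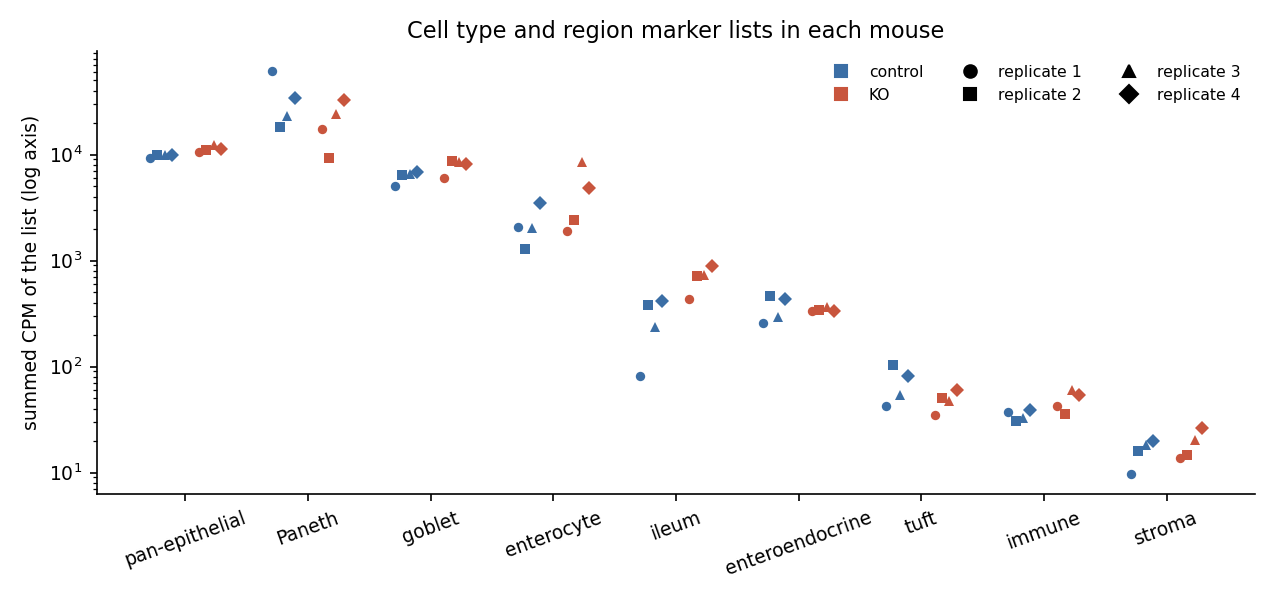
Summed CPM (log axis) of 9 marker lists in each mouse, with colours for genotype and symbols for replicate number. The pan-epithelial and ileal sums of the 4 KO mice sit above those of the 4 controls, while the other lists overlap.

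The mean profile of the 10 markers over the 8 mice was set against every other protein-coding gene with a mean log2 CPM of at least 1, which made 11235 genes. The measure was the root mean square difference of mean-centred log2 CPM, with a median of 0.232 over these genes. The nearest were Kbtbd3 (0.029), Ddb2 (0.030), Angel1 (0.044), Adpgk (0.052) and Ripor2 (0.054). Ddb2, which recognises ultraviolet-damaged DNA, stood at 20.8, 19.9, 19.5 and 19.8 CPM in controls and at 17.7, 15.1, 16.5 and 15.9 CPM in KO replicates 1 to 4. Of the markers themselves, Cdca7 (0.085), Smoc2 (0.085) and Mfge8 (0.094) lay closest to the mean profile and Prom1 (0.283) farthest. Because 10 genes are averaged in it, the profile is smoother than any 1 of them.

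Sequence features that the choice of markers did not use were counted in the promoter windows. RefSeq windows were matched for 8 of the 10 markers, all but Smoc2 and Sox9, with 15 windows in all, of which windows 1 and 2 of Rgmb overlap. KLF boxes were counted because KLF4, a differentiation factor of the intestine, was examined by the study together with MEX3A. A KLF box lay in 11 of the 15 windows, printed above for Olfm4 and Ascl2, and in at least 1 window of 6 of the 8 markers, against 30.9% of 32851 windows and 33.3% of 27025 genes in the reference. In the first window of each gene the count was 5 of 8 against 30.3%. The marker windows had a median GC content of 59.3% against 52.7% for all windows. The TCF/LEF motif lay in 2 of the 15 windows, against 16.9% of all, in Tnfrsf19 as printed above and in the third window of Esrrg. The E-box CAGCTG lay in 1 of the 15, against 16.3%, also in window 2 of Tnfrsf19, without overlap with its TCF/LEF match. These are matches of letters and describe the windows alone.

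The recognition element of the MEX3A protein, a pair of 4-base ends with 0 to 8 bases between them, was searched in the 3′ untranslated region of the longest coding transcript (GENCODE M21, GRCm38). At least 1 match was found in 9 of the 10 markers, against 74.2% of 13030 tested genes with such a region, and Mfge8 had none. The markers held 55 matches in all, or 3.04 per 1000 bases, against 2.39 per 1000 bases over all genes. Esrrg had 13, Tnfrsf19 had 10, Rgmb had 8, Olfm4 had 7, Sox9 had 5, Smoc2 and Cdca7 had 4 each, Prom1 had 3 and Ascl2 had 1. Matches with few bases between the ends are shown for the lineage factor Ascl2, for the secreted markers Olfm4 and Smoc2 and for Esrrg, all in the last exon of the transcript, with the ends in capitals.

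Ascl2 (chr7:142967082-142967092, minus strand, exon 3 of 3): GTAGgacTCTA

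Olfm4 (chr14:80022117-80022125, plus strand, exon 5 of 5): ATAGaTTTA

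Smoc2 (chr17:14403637-14403647, plus strand, exon 13 of 13): TGAGataTTTA

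Esrrg (chr1:188212004-188212011, plus strand, exon 8 of 8): TTAGTTTA

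The matches were not set against binding of the protein.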

How the data were processed

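RNA of intestinal crypts from 4 control and 4 KO mice was sequenced by the authors on an Illumina NovaSeq platform. Per the labels, reads were aligned with HISAT2 2.0.5 and counted with featureCounts 1.5.0-p3, and CASAVA is also listed. The genome build is not given in the sources used here, and 98.7% of the table's identifiers found in GENCODE M21 have the same start and end there (GRCm38). Deposited for each gene and mouse are raw read counts, with no normalization by the authors, and FPKM, which the authors scaled by gene length and sequencing depth. Columns of the authors' own comparison (normalized values, fold changes and p-values) were not used.

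Samples were grouped by the genotype in their labels. From the counts, genotypes were compared with edgeR 4.0.16 in R 4.3.3 over all 16109 genes passing filterByExpr (minimum count 10), with TMM factors, the quasi-likelihood test, genotype as the only term and Benjamini-Hochberg adjustment at 0.05 (residual df 6, prior df 3.34, biological coefficient of variation 0.237). CPM use the TMM-scaled reads on these genes; log2 CPM of single mice use a prior count of 2. Strand use in counting is not given in the sources used here. The 10 markers and all gene lists were chosen with earlier results of these data known. Named besides the markers and Mex3a were, of each pathway list, at most 6 genes with the smallest unadjusted p under 0.05, and the 5 genes nearest to the markers' mean profile; Lgr5 was named under the WNT list. Hoxb13, Lum, Pdgfra, Il25, Pla2g2a, Axin2 and Ccnd1 fall outside this rule and were named after their values were seen. Axin2 and Ccnd1 were named because the study had reported them.

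After subtracting the mean of each genotype, the 2 mice sharing a number correlated over genes at 0.129, 0.501, 0.141 and 0.294 for numbers 1 to 4, which passed 0.1 in every pair, so the numbers were treated as pairing the mice. Over autosomal genes the values were 0.0873, 0.481, 0.0921 and 0.252, so 2 of the 4 pairs fell under 0.1 there. The numbers also match the Xist or Y group, and no source used here ties a number to a litter. Libraries of 1 genotype were not duplicates. Alternatives were DESeq2 1.42.0, RLE, upper-quartile and pan-epithelial scaling, other filters, limma 3.58.1 on log2(FPKM + 1) and log2(FPKM + 0.1), the block, the Xist or Y group and leaving out each mouse. On simulated counts of 15768 genes with 200 changed, the edgeR test recovered 58% of 2-fold and 89% of 4-fold changes with 6.37% false calls, and DESeq2 gave 21.1% false calls. Changes under 2-fold were not simulated. Recovery of changes as small as those of the markers, with KO levels of 70.0% to 93.2% of control, was therefore not tested. Figures were drawn with matplotlib 3.10.9 in Python 3.11.15.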

Additional observations from a re-analysis of the deposited data

Results flagged for a closer look

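Among 62 sets of 4 mice examined for 1 mouse far from the others, 1 stood out, where about 3.1 would by chance. The enteroendocrine markers summed to 367 CPM in KO replicate 3, the highest of the KO mice, whose other values lay close together at 336 to 340 CPM. Controls ranged from 258 to 462 CPM around it. None of the 20 sets of the stem cell markers held such a mouse.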

How the results depend on the processing

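The 10 stem cell markers were lower in KO in each of the 18 alternatives, except that Tnfrsf19 turned to 0.031 (log2) without KO replicate 2 (-0.27 to 0.031 over the fits that left out 1 mouse). Smoc2, Rgmb, Mfge8 and Esrrg kept an unadjusted p under 0.05 in all 18, Cdca7 in 15 and Olfm4 in 14 (highest 0.0744, limma on log2(FPKM + 0.1)); Sox9 reached it in 7, Prom1 in 2, Ascl2 and Tnfrsf19 in 0. No marker passed an adjusted p of 0.05 in any (lowest 0.0871, Esrrg). The count of 6 markers at the unadjusted threshold was 5 to 8 in the alternatives that kept all mice (7 with the replicate block) and 4 to 7 when 1 mouse was left out.

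Over all genes, the count past the adjusted threshold was 1, and 93 with DESeq2 (10 lower, 83 higher), 2 with no filter, 0 with at least 10 counts in every mouse, 2 with limma on either FPKM scale, 0 with the replicate block, 4 with the Xist or Y group as a covariate and 0 to 4 when 1 mouse was left out (4 lacking control replicate 2, 1 lacking KO replicate 2, 0 in the other 6 fits). The count at the unadjusted threshold was 1350, and 4236 with pan-epithelial scaling, where 93.7% of calls were lower against 36.4% with TMM factors (43.0% with upper-quartile factors), and 846 (without KO replicate 3) to 2133 (without KO replicate 1) when 1 mouse was left out. With pan-epithelial scaling 15 of the other Lgr5 stem cell genes, 7 of the WNT list and 3 of the proliferation list were lower at that threshold, against 8, 4 and 0, but 24.6% of all genes were lower there with this scaling and 3.05% with TMM factors. When 1 mouse was left out these counts were 4 to 10, 2 to 4 and 0. The replicate block changed no call of a marker at the adjusted threshold. Apart from what the scaling itself sets, the cause of these shifts was not tested. Tnfrsf19, Ascl2 and Esrrg had the fewest reads, and with 4 mice per genotype the standard errors of the markers were 0.094 to 0.20 on the log2 scale.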

Other observations

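Pla2g2a, a Paneth cell phospholipase gene that C57BL/6 mice are known to carry in an inactive form, varied most among the Paneth markers and was singled out after its values were seen. It stood at 3927, 49.5, 1318 and 1767 CPM in control replicates 1 to 4 and at 1090, 57.1, 63.4 and 74.6 CPM in KO replicates 1 to 4. All 8 mice carry the same strain label, and a mixed strain background was not tested. Within replicate numbers 1 and 2 the genotypes were alike in being high or low, and within numbers 3 and 4 the control was high and the KO low. The relation of these levels to the stem cell markers was not tested.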
